A study of Homo sapiens with 12 samples.

Results

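The cytosolic ribosomal proteins are the protein part of the ribosomes that translate nuclear messages. The family was taken as the protein-coding genes whose symbol is RPL or RPS followed by a number, with an optional A, X, Y or L and a further number, together with RPLP0, RPLP1, RPLP2 and RPSA. The kinases named RPS6K were left out. This rule found 86 of the 60666 genes listed in each library, 34 of the small subunit and 52 of the large subunit, and it used names alone and no measured value. Of the 86, 81 passed the filter on low counts and were tested among 14274 genes. The members that did not pass were RPL3L, RPL10L, RPS28 and 2 others whose values are not reported here. FAU and RACK1, which also encode ribosomal proteins, and the gene RPL36AL have symbols outside the rule and were followed in a separate list.

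The cells were Huh7, an established human hepatocellular carcinoma line. They were cultured with Molidustat at 25 µM or with its vehicle DMSO alone, for 24 h or 48 h, with 3 libraries in each of the 4 groups (DMSO 24 h, Molidustat 24 h, DMSO 48 h and Molidustat 48 h). Molidustat inhibits the prolyl hydroxylases that mark hypoxia-inducible factors for destruction, so the comparison asks what stabilised HIF does to the messages of a hepatoma line. All groups shared this single line and the same medium, and Molidustat was given at a single dose. The labels call the replicates triplicate RNA extractions, while the study's methods speak of biological replicates of each culture condition. The p-values measure the spread between these libraries, and whether that spread is biological or technical was not settled by these sources.

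A ribosome carries a single copy of most of these proteins, and cells make them in matched amounts from genes scattered over the genome. Most of their messages start with a run of pyrimidines at the 5′ end, the 5′ terminal oligopyrimidine or TOP tract, through which mTORC1 and the RNA-binding protein LARP1 control how much of the message is translated. Because that control acts on translation, message counts do not measure how much ribosomal protein is made. Several members are also known for work outside the ribosome: RPL5 and RPL11 bind the p53 inhibitor MDM2, RPL13A is used as a reference gene in RT-qPCR, including by this study, and RPS27A is made as a fusion with ubiquitin.

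The starts of the messages are shown here because the TOP tract is a sequence feature that most members share and that the choice by name did not use. RefSeq's table of start windows on build GRCh38.p14 held 69 of the 86 members with 85 starts. A C at the first transcribed base followed by at least 4 pyrimidines (C or T) stood at a start of 48 of these 69 members (69.6%) and at a start of 5.14% of the 27305 genes of that table. With the C allowed up to 5 bases to either side of the start, the shares were 79.7% and 25.2%. Each line below gives 15 bases before the annotated start and 15 from the start on, 5′ to 3′ on the transcribed strand, with the tract in capitals. The windows are chr12:120201097-120201126 (minus strand) for RPLP0, chr9:19380222-19380251 (minus) for RPS6, chr19:49487593-49487622 (plus) for RPL13A, chr11:119018329-119018358 (minus) for RPS25, chr13:27251543-27251572 (plus) for RPL21, chr1:153990747-153990776 (plus) for RPS27, chr15:63157463-63157492 (minus) for RPS27L, chr1:6199581-6199610 (minus) for RPL22, chr3:170870181-170870210 (minus) for RPL22L1 and chr6:42879601-42879630 (plus) for RPL7L1.
RPLP0: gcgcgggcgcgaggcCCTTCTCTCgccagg
RPS6: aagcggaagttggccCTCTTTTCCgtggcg
RPL13A: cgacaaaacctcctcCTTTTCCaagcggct
RPS25: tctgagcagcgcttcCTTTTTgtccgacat
RPL21: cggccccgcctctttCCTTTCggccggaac
RPS27: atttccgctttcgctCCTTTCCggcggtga
RPS27L: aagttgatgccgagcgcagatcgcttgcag
RPL22: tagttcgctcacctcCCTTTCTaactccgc
RPL22L1: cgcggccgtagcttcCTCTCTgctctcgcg
RPL7L1: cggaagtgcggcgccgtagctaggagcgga
Of the paralogues shown, RPL22 and RPL22L1 both had a tract at the start, while RPS27 had one and RPS27L had none in this window. RPL7L1, a relative of RPL7 known as a nucleolar protein, had none either. RPL9 and RPS26, whose lines are not shown, also had none at the start listed for them.

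The core of the HIF binding site, ACGTG or GCGTG, was searched on both strands of the 300 bases around each start (250 before and 50 after). It was found for 51 of the 69 members (73.9%) and for 52.4% of all genes of the table. ACGTG is also contained in the E-box CACGTG. A match of 5 letters is a description of the window and not evidence that a factor binds there.

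Before the values, 1 library has to be named. DMSO 48 h replicate 2 stood apart from the other 11 libraries. It held 1499273 counts on genes, against 2312396 to 9179389 in the others, and 50.4% of its reads lay on no annotated feature, against 17.1 to 25.6%. Over all genes tested its log2 levels correlated at 0.707 to 0.782 with those of the other libraries. It held the highest of the 12 values for 24.5% of all genes tested and the lowest for 29.1%, where each other library held the highest for 2.68 to 10% and the lowest for 1.53 to 8.78%. Within the family it was the highest for 10 members and the lowest for 30 of 81. Many of the values at 48 h are therefore given with and without it. What set this library apart was not tested.

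The labels were checked against genes known to answer HIF and against cell type markers. BNIP3, a mitophagy receptor and HIF target, was at 176, 196 and 103 CPM (counts scaled to a common library size with TMM) in DMSO at 24 h and at 1125, 975 and 1232 CPM in Molidustat at 24 h. Its log2 fold change was 2.81 at 24 h and 2.68 at 48 h (adjusted p = 0.000977 and 0.00149 by edgeR's quasi-likelihood test), and LDHA, the lactate dehydrogenase subunit, rose with it at 24 h. The hepatoma markers were abundant, led by AFP at a mean of 7161 CPM. The summed level of the 9 hepatocyte and hepatoma markers was 12776, 13580 and 15756 CPM in DMSO 24 h and 19115, 19306 and 23274 CPM in Molidustat 24 h. At 48 h it was 17165, 9052 and 16992 CPM in DMSO and 26496, 24667 and 29439 CPM in Molidustat, so the groups did not overlap at either time. A gene was called where its adjusted p was under 0.05 and its log2 fold change lay beyond 1. None of the 9 was called with all libraries, against 33 (24 h) and 30 (48 h) of 14274 genes in the higher direction. At each time 2 of the 9 were called higher without DMSO 48 h replicate 2, against 111 (24 h) and 48 (48 h) of 15253 genes. TF, the transferrin gene, was among the 2 (1.27 at 24 h and 1.11 at 48 h on the log2 scale, adjusted p = 0.00164 and 0.0351 by edgeR). The markers did not all lie in that direction: 1 of 9 had a negative log2 fold change at 24 h and 2 of 9 at 48 h, the lowest at 48 h being -1.88, or -0.67 without DMSO 48 h replicate 2. The summed leukocyte, endothelial and fibroblast markers stayed at or under 6.81, 6.45 and 8.08 CPM in every library.

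Together the 86 genes took only a small share of the counts. The share of all gene counts was 2.07, 2.20 and 2.95% in DMSO at 24 h and 1.82, 2.55 and 2.30% in Molidustat at 24 h. At 48 h it was 1.84, 1.37 and 2.32% in DMSO and 1.72, 2.57 and 2.14% in Molidustat. The groups overlapped at both times, and the lowest of all 12 shares was that of DMSO 48 h replicate 2. That place depended on the scaling: with TMM, whose factor was 0.629 for this library, the summed level of the family was 21838 CPM in it and 16391 to 28958 CPM in the others.

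The group means were 2.41% ± 0.479 (SD, n = 3) and 2.22% ± 0.367 (SD, n = 3) at 24 h, and 1.84% ± 0.475 (SD, n = 3) and 2.14% ± 0.428 (SD, n = 3) at 48 h, DMSO first. Without DMSO 48 h replicate 2 the DMSO mean at 48 h was 2.08% ± 0.337 (SD, n = 2). With TMM the summed levels at 48 h were 20310 ± 2776 CPM in DMSO and 20840 ± 4560 CPM in Molidustat (SD, n = 3). The differences in share and in summed level lay within the spread between replicates. The small subunit took 0.636 to 1.29% and the large subunit 0.732 to 1.66% of a library, and in each library the large subunit had the larger share. The transcripts of the mitochondrial genome varied over a wider range, from 0.969 to 3.80%. Since these are bulk samples, a change in the number of cells and a change in message per cell cannot be told apart.

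**Figure D1:**
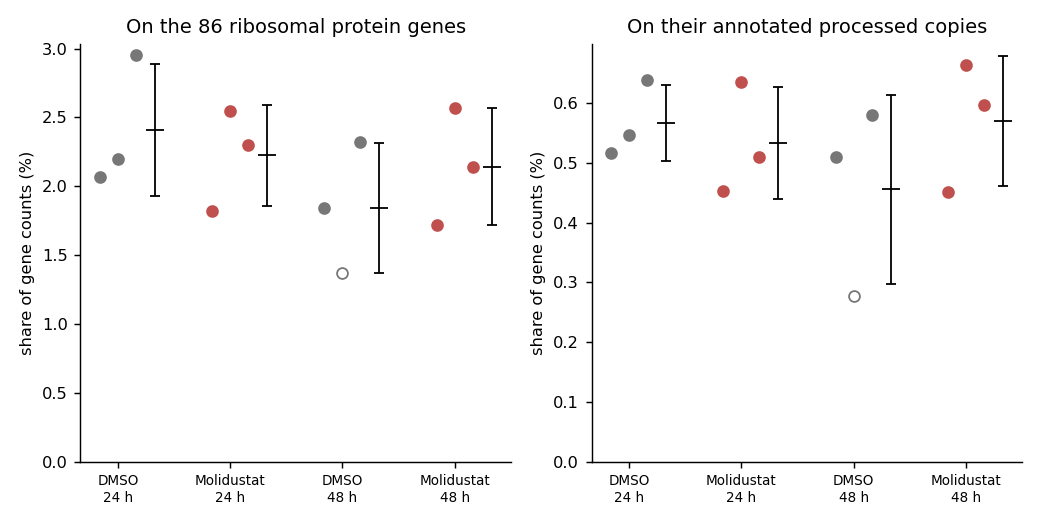
Share of all gene counts (%) on the 86 ribosomal protein genes (left) and on their annotated processed copies (right) in each of the 12 libraries, by group. Points are libraries, with DMSO in grey, Molidustat in red and DMSO 48 h replicate 2 hollow; bars are the mean and SD of 3 libraries. The 4 groups overlap, and the hollow point is the lowest in both panels as a share of counts without TMM scaling.

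High and low values of the members gathered in a few libraries. DMSO 24 h replicate 3 held the highest of the 12 values for 26 of the 81 tested members, Molidustat 48 h replicate 2 for 18 and Molidustat 24 h replicate 2 for 15. None of these 3 libraries held the lowest value of any tested member. The lowest values lay mostly in DMSO 48 h replicate 2 (30 members), Molidustat 48 h replicate 1 (17) and DMSO 48 h replicate 1 (14). Over all genes tested, the first 3 libraries held the highest value for 5.72, 9.95 and 10% of genes, against 32.1, 22.2 and 18.5% of the members. The last 3 held the lowest value for 29.1, 5.46 and 2.55% of all genes, against 37, 21 and 17.3% of the members. The libraries with high and with low values thus included both treatments.

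The members differed widely in level. Of the 86, 56 had a mean above 100 CPM, 19 lay between 10 and 100 CPM and 11 lay below 10 CPM, with a median of 150 CPM. The 5 most abundant members were RPS2, RPLP0, RPL15, RPS6 and RPL23, and they held 33.4% of all counts on the family. The kit reads the 3′ ends of messages, so counts are not proportional to length. Levels between genes were nevertheless also compared per kilobase of the canonical transcript, where RPS2 stayed first at 2587 CPM per kb, RPL27 was at 1484 and RPLP0 at 1102 CPM per kb, while RPL23, with a long annotated transcript, was at place 18 (368 CPM per kb).

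RPS2, a small subunit protein near the entry of the message (ENSG00000140988; GRCh38 chromosome 16, 1962058 to 1964841), was at 2387, 2547 and 1890 CPM in DMSO 24 h and at 2103, 4421 and 1616 CPM in Molidustat 24 h. At 48 h it was at 2426, 2019 and 2806 CPM in DMSO and at 2219, 2459 and 2447 CPM in Molidustat. Molidustat 24 h replicate 2 was the highest library by far, and the groups overlapped at both times. The log2 fold changes of 0.25 ± 0.38 (SE, n = 3 per group) at 24 h and -0.03 ± 0.38 at 48 h did not pass the test (adjusted p = 0.999 and 0.990 by edgeR), and without Molidustat 24 h replicate 2 the 24 h value was -0.29.

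RPS6, the small subunit protein that S6 kinases phosphorylate (ENSG00000137154; chromosome 9, 19375715 to 19380236), was at 1087, 1152 and 1209 CPM in DMSO 24 h and at 1020.0, 1381 and 1134 CPM in Molidustat 24 h. At 48 h its levels were 1051, 606 and 1353 CPM in DMSO and 906, 1283 and 1287 CPM in Molidustat. Apart from the 606 CPM of DMSO 48 h replicate 2, all libraries lay within 906 to 1381 CPM. Its log2 fold change was 0.04 ± 0.34 at 24 h and 0.21 ± 0.34 at 48 h, or -0.07 ± 0.24 without that library. The 95% interval of the 24 h value without that library was -0.41 to 0.51.

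RPL13A (ENSG00000142541; chromosome 19, 49487510 to 49493057), the large subunit protein whose message served as the RT-qPCR reference of the study, was at 109.5, 99.4 and 156 CPM in DMSO 24 h and at 102, 97.1 and 121 CPM in Molidustat 24 h. At 48 h it was at 120.4, 66.0 and 141 CPM in DMSO and at 128, 175.5 and 153 CPM in Molidustat. The groups overlapped at both times. Its log2 fold change was -0.19 ± 0.32 at 24 h (adjusted p = 0.999 by edgeR) and 0.47 ± 0.33 at 48 h (adjusted p = 0.596 by edgeR). Without DMSO 48 h replicate 2, its lowest library, the 48 h value was 0.21 ± 0.27, with a 95% interval of -0.37 to 0.78. Among the 14 genes of the list of common RT-qPCR reference genes, GAPDH, the glycolytic enzyme, had the largest difference, with a log2 fold change of 2.38 ± 0.54 at 24 h and 1.94 ± 0.53 at 48 h (adjusted p = 0.122 and 0.191 by edgeR, and 0.0026 and 0.209 without DMSO 48 h replicate 2).

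**Figure D2:**
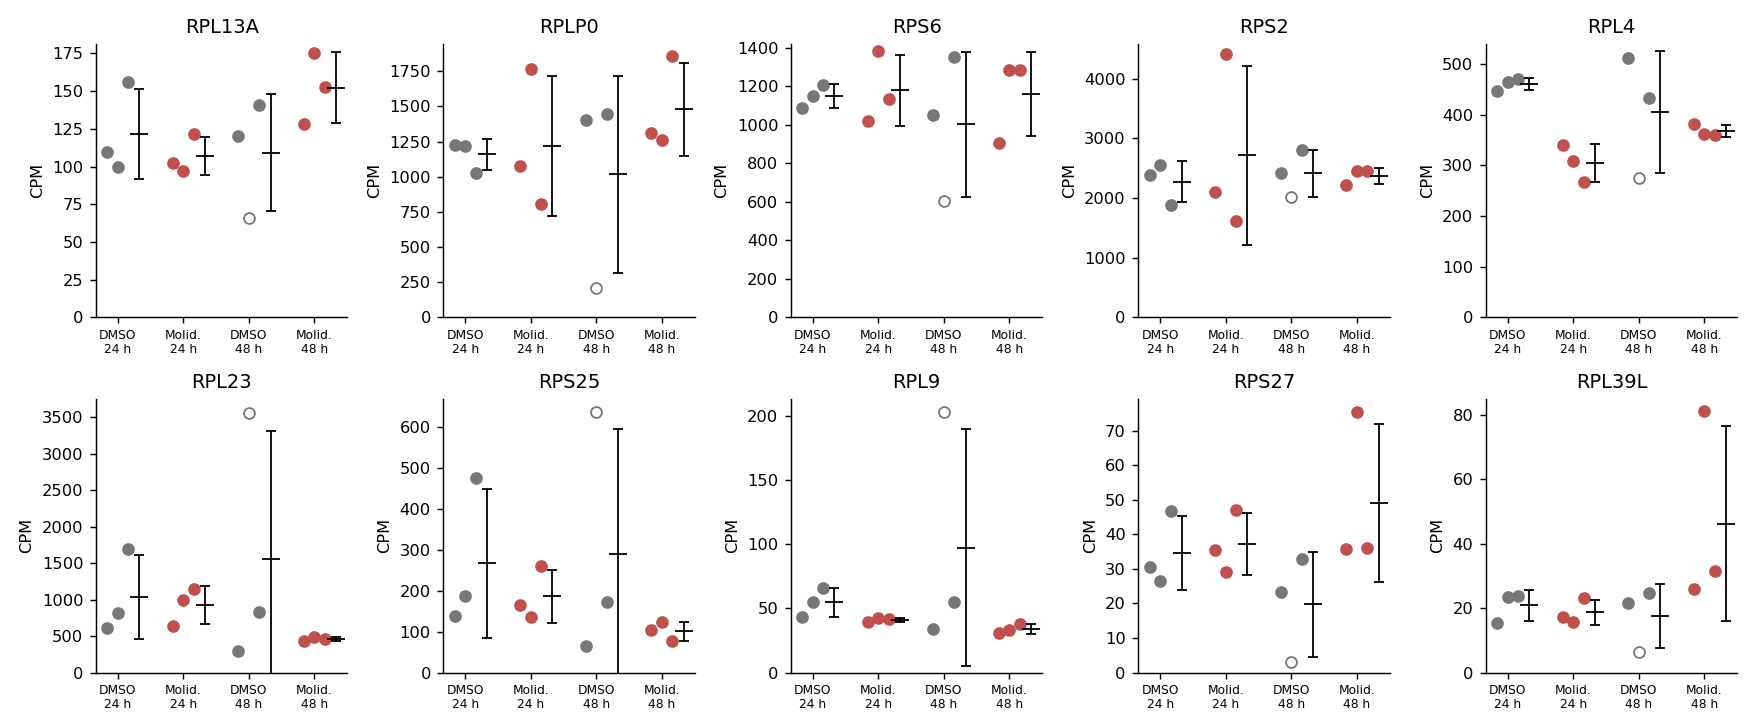
Level (CPM) of 10 members in each library, by group, with the mean and SD of 3 libraries; SD bars that would pass below 0 are clipped at 0, and DMSO 48 h replicate 2 is hollow. In RPL13A, RPLP0, RPS6 and RPS2 Molidustat and DMSO overlap at each time, and for RPL23, RPS25 and RPL9 the hollow point is the highest of all 12.

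Many counts of the family lay on processed copies, the intronless pseudogenes that ribosomal protein messages have left across the genome. Pseudogenes named as a member's symbol followed by P and a number came to 1598 for 78 of the 86 members, and they took 0.278 to 0.663% of a library, lowest again in DMSO 48 h replicate 2, though with TMM their summed level there (4433 CPM) was above that of Molidustat 48 h replicate 1 (4305 CPM). For 13 members the copies held more than 50% of the counts of gene and copies together. Since messages of gene and copy are nearly identical, reads of 1 may have been assigned to the other, and the deposited counts left out reads that fitted several places. Values of these members are uncertain for that reason.

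RPL7, a large subunit protein, showed this most. Its own gene was at a mean of 7.15 CPM, with the 12 libraries between 0.230 and 12.9 CPM, while its 61 copies summed to 447 CPM. Copies held 98.5% of the reads of gene and copies, and RPL7P9 alone (chromosome 1, 96678874 to 96679620) was at 297 CPM, between 118 and 379 CPM. Molidustat against DMSO at 24 h gave 0.60 ± 0.87 on the log2 scale for the gene alone and -0.42 ± 0.40 with the copies added, so the direction turned while neither value passed the test (adjusted p = 0.999 for both by edgeR).

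RPL21 lay at 7.08 CPM against 59.9 CPM on 133 copies, RPS26 at 5.07 against 47.6 CPM, RPL36A at 1.98 against 18.1 CPM and RPS28 at 0.959 against 8.85 CPM. These members and RPL39, at 7.61 CPM, were thus among the lowest of the family by name. Their single copies RPL21P16, RPS26P19, RPL36AP37 and RPS28P7 each had more counts than the parent gene. At a higher level RPL3 was at 170 CPM against 320 CPM, most of it on RPL3P4. RPL7 with its copies was at 454 CPM. Of the 130 copies that were tested, none was called by edgeR at either time (where 0.231% of all genes were called higher and 0% lower at 24 h, and 0.21% and 0.021% at 48 h), with medians of -0.07 at 24 h and 0.18 at 48 h on the log2 scale, or 0.12 at 48 h without DMSO 48 h replicate 2.

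**Figure D3:**
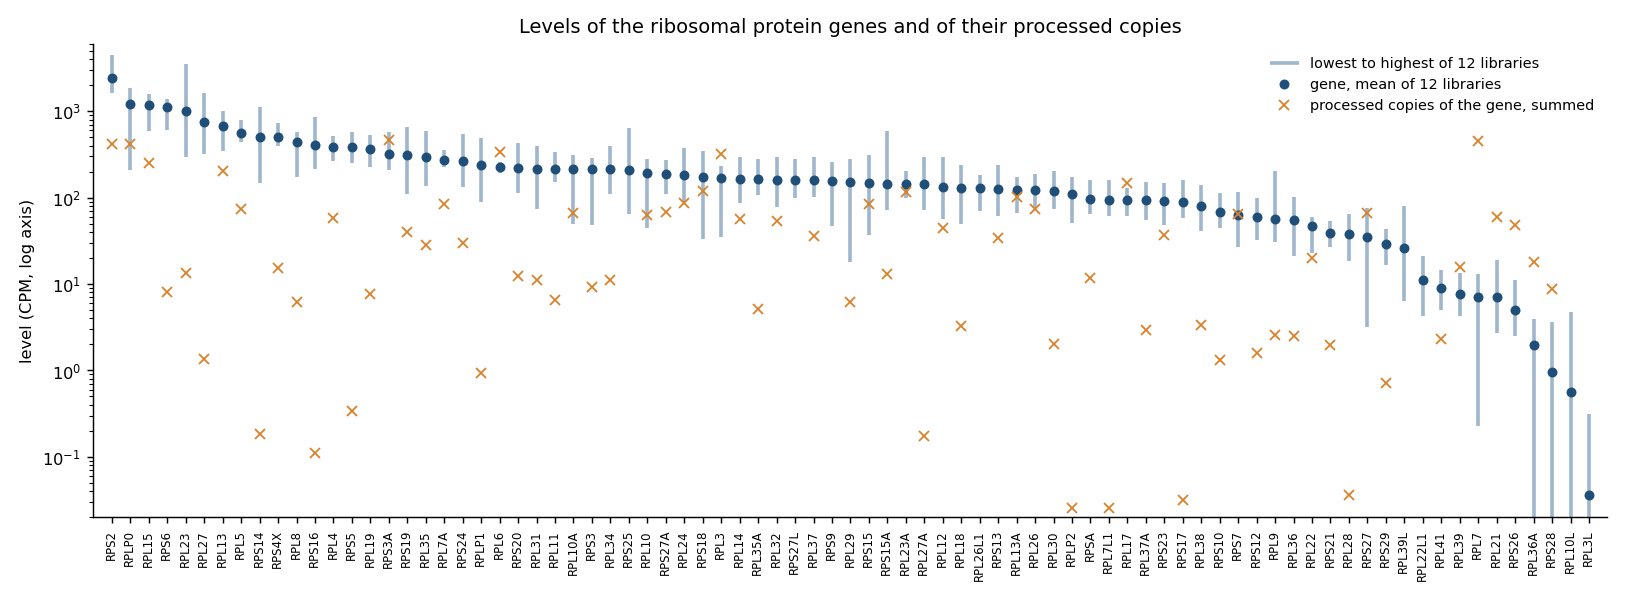
Mean level (CPM, log axis) of 81 members in order of level, with a bar from the lowest to the highest of 12 libraries and a cross for the summed level of the processed copies. Levels of copies below 0.02 CPM are not drawn. At the right end RPL7, RPL21, RPS26, RPL36A and RPS28 lie below their copies.

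A further trait of the family is that many introns hold small nucleolar RNA genes, which guide the modification of ribosomal RNA. Of the 86 members, 28 hosted 60 snoRNA genes (32.6%), against 1.28% of all protein-coding genes in the annotation. The counted messages do not measure those RNAs.

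At 24 h no member was called in either direction by edgeR, against 33 genes called higher (0.231%) and 0 called lower (0%) of all genes tested. DESeq2 called none of the 81 members it gave an adjusted p, against 0.907% of all genes it gave one, in either direction. By edgeR no member had an unadjusted p under 0.05, where 3.73% of all genes did in the higher and 1.52% in the lower direction. Without DMSO 48 h replicate 2 no member was called, where 111 of 15253 genes were called higher and 5 lower. At an unadjusted p under 0.05, 1 member was then lower and none higher, where 434 and 944 of all genes passed. With all libraries the smallest adjusted p in the family was 0.979. The median log2 fold change was -0.10 over the 81 members and 0.02 over all genes, and 30 of the 81 values were above 0. By subunit, the medians were -0.11 for 31 small subunit and -0.10 for 50 large subunit members.

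This median rested on single libraries. It was 0.17 without DMSO 24 h replicate 3, the library with the highest family share, and 0.06 without Molidustat 24 h replicate 1, the lowest of its group. The standard error of a member's log2 fold change was 0.42 in the median. For 24 of the 81 members (29.6%) the 95% interval lay wholly within -1 to 1, against 16.7% of all genes, so a change of 2-fold was outside the interval for these only. Without DMSO 48 h replicate 2, which enters the shared estimate of the spread, this held for 55 of 82 members, against 28.1% of all genes.

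The groups at 24 h did not overlap for 3 members, RPL4, RPL8 and RPL9, all of the large subunit and all lower, where 5.02% of all genes did not overlap in that direction and 7.26% in the other. RPL4, a protein with a long loop into the ribosome's exit tunnel, was at 447, 464 and 470 CPM in DMSO and at 341, 308 and 266 CPM in Molidustat. It was the member with the smallest p at 24 h (log2 fold change -0.59 ± 0.30, adjusted p = 0.979 by edgeR), and without DMSO 48 h replicate 2 its standard error fell to 0.20 (adjusted p = 0.335 by edgeR). RPL4 was chosen for description after its values were seen, as were RPL8, RPL37, RPS15A, RPL27, RPL31 and RPS9 below. At 48 h RPL4 was at 511, 275 and 432 CPM in DMSO and at 382, 362.5 and 359.9 CPM in Molidustat, which overlapped only through DMSO 48 h replicate 2.

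The members with the highest log2 fold changes at 24 h were RPL39 (0.60 ± 0.61), RPL7 (0.60 ± 0.87) and RPLP1 (0.37 ± 0.46), and those with the lowest were RPL21 (-1.05 ± 0.73), RPS26 (-0.78 ± 0.68) and RPL36A (-0.67 ± 1.22). All but RPLP1 are members with few counts and most of their reads on copies. With the copies added, RPL21 was at 0.04 and RPS26 at 0.10. RPLP1, a protein of the stalk that recruits elongation factors, was at 179, 183 and 359 CPM in DMSO and at 153, 490.0 and 289 CPM in Molidustat, and its value was -0.12 without Molidustat 24 h replicate 2.

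**Figure D4:**
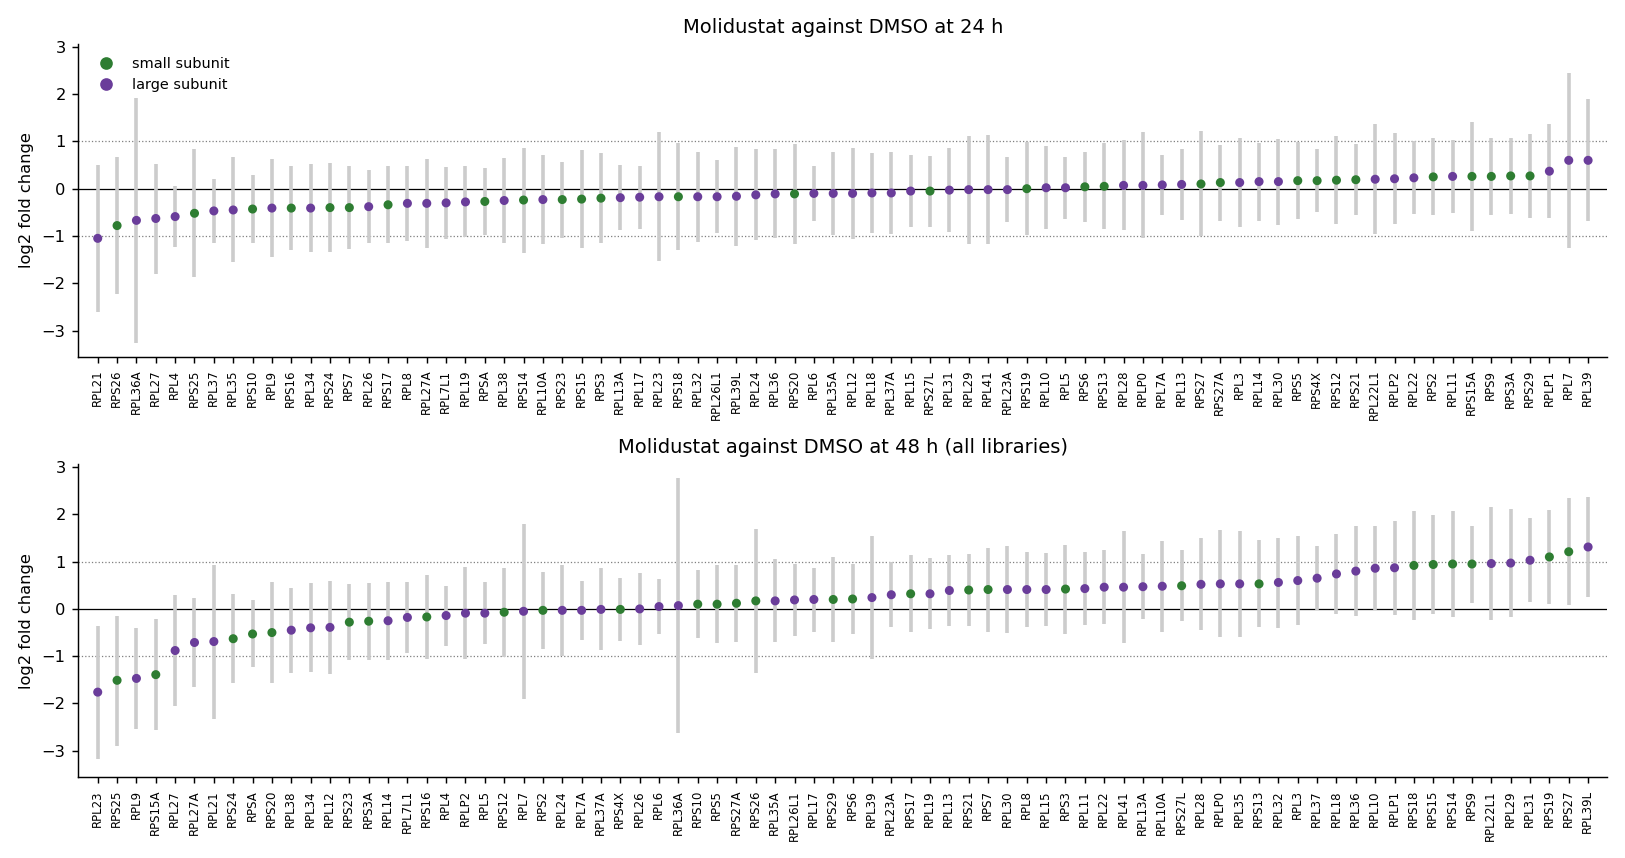
Log2 fold change of 78 of the 81 tested members, Molidustat against DMSO, at 24 h (top) and at 48 h (bottom, all libraries), each panel in its own order, with the 95% interval in grey; small subunit members are green and large subunit members purple, and dotted lines mark a log2 fold change of 1 to either side. No member was called; at 48 h the points run from -1.76 (RPL23) to 1.31 (RPL39L).

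At 48 h again no member was called by edgeR, against 30 genes called higher (0.21%) and 3 called lower (0.021%) of all genes, nor by DESeq2, against 2.52% of all genes in either direction. By edgeR without the filter on low counts, 4 of 84 members were called lower, against 2.15% of all genes, and without DMSO 48 h replicate 1, 2 of 81 members were, against 1.82% of all genes. At an unadjusted p under 0.05, 5 members were higher (RPL39L, RPS27, RPS19, RPL31 and RPS9) and 4 lower (RPL23, RPS25, RPL9 and RPS15A), where 4.53% and 8.81% of all genes passed. The median log2 fold change was 0.20 over the members and 0.01 over all genes, and 51 of 81 values were above 0. It was 0.12 over the small and 0.31 over the large subunit, or 0.16 and 0.17 without DMSO 48 h replicate 2. Over all members it was 0.17 without that library (82 members, RPS28 having passed the filter then), and without Molidustat 48 h replicate 2, the library with the highest family share at 48 h, it was -0.03.

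The lowest log2 fold changes at 48 h rested on DMSO 48 h replicate 2. RPL23, a large subunit protein that can bind MDM2 (ENSG00000125691; chromosome 17, 38847860 to 38853764), was at 292, 3563 and 826 CPM in DMSO and at 428, 492 and 458 CPM in Molidustat at 48 h. The 3563 CPM of replicate 2 were the highest of the 12 libraries, and the Molidustat libraries lay between the other DMSO values. The log2 fold change was -1.76 ± 0.66 with that library (adjusted p = 0.256 by edgeR) and -0.30 ± 0.41 without it (adjusted p = 0.992 by edgeR).

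RPS25, a small subunit protein known for its part in translation from internal entry sites, was at 63.8, 634.5 and 173 CPM in DMSO and at 104.5, 122 and 75.9 CPM in Molidustat. RPL9 was at 33.9, 203 and 55.1 CPM in DMSO and at 30.8, 33.5 and 38.2 CPM in Molidustat. In both, replicate 2 was the highest of all 12 libraries. Their log2 fold changes went from -1.51 ± 0.65 and -1.47 ± 0.50 to -0.25 ± 0.47 and -0.40 ± 0.31 without it. RPS15A (595 CPM in replicate 2, 94.3 and 109.6 CPM in the other DMSO 48 h libraries) went from -1.39 to -0.03 and RPL27 from -0.88 to -0.11.

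Not all members high in that library were so in it alone. RPL23, RPS25 and RPL27 were also higher in DMSO 24 h replicate 3 than in the other DMSO 24 h libraries: RPS25 was at 138, 186 and 474.5 CPM there. At 24 h the groups overlapped for each of these 3.

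Other members were at their lowest in the same library. RPLP0, the core protein of the stalk (ENSG00000089157; chromosome 12, 120196699 to 120201235), was at 1400.0, 211 and 1446 CPM in DMSO and at 1311, 1263 and 1861 CPM in Molidustat at 48 h. All other libraries of the series held at least 804 CPM. Its log2 fold change was 0.53 ± 0.53 with replicate 2 and 0.04 ± 0.29 without it. RPS3 (0.42 and -0.04), RPL3 (0.60 and 0.15) and RPL10 (0.86 and 0.47) likewise had smaller values without that library. Without DMSO 48 h replicate 3 instead, the values of RPS3, RPL3 and RPL10 were larger, at 0.83, 1.06 and 1.29.

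**Figure D5:**
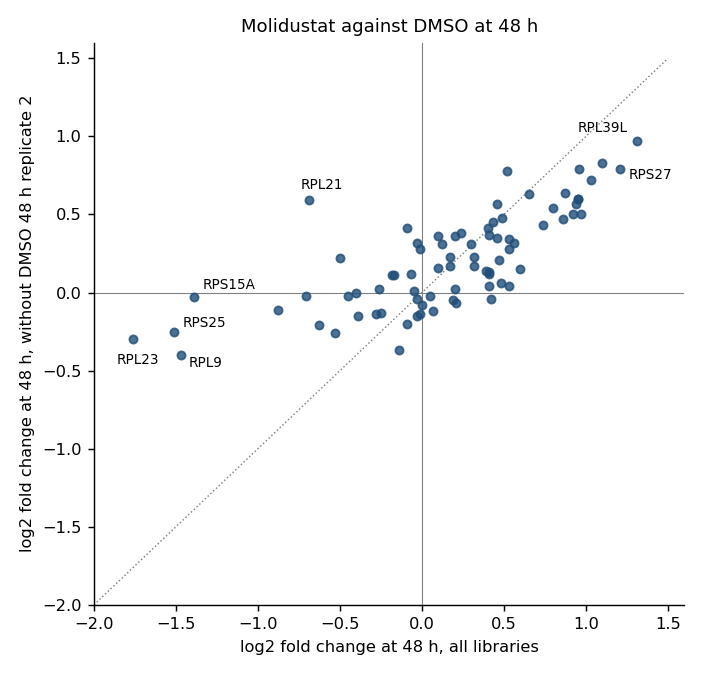
Log2 fold change of 78 of the 81 tested members at 48 h with all libraries (horizontal axis) and without DMSO 48 h replicate 2 (vertical axis); the dotted line marks equal values. RPL23, RPS25, RPL9 and RPS15A move from -1.76 to -1.39 on the horizontal axis to between -0.40 and -0.03 on the vertical axis, and RPL39L is the highest on both.

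The higher values at 48 h shrank less without that library, and also rested in part on Molidustat 48 h replicate 2. RPL39L, a paralogue of RPL39 best known from testis, was at 21.6, 6.39 and 24.8 CPM in DMSO and at 26.1, 81.1 and 31.6 CPM in Molidustat at 48 h. The groups did not overlap, and Molidustat 48 h replicate 2 was far above the others. The log2 fold change was 1.31 ± 0.50 (adjusted p = 0.266 by edgeR), 0.97 ± 0.46 without DMSO 48 h replicate 2 (adjusted p = 0.752 by edgeR) and 0.62 without Molidustat 48 h replicate 2. RPL39 itself had 0.24 ± 0.61, or 0.38 without DMSO 48 h replicate 2.

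RPS27, a zinc-binding small subunit protein, was at 23.2, 3.19 and 32.8 CPM in DMSO and at 35.7, 75.5 and 36.1 CPM in Molidustat at 48 h. Again the groups did not overlap, with the lowest value in DMSO replicate 2 and the highest in Molidustat replicate 2. Its log2 fold change was 1.21 ± 0.53 with all libraries and 0.79 ± 0.40 without DMSO 48 h replicate 2. Its paralogue RPS27L, which lacked the TOP tract above, was at 108, 109.7 and 111 CPM in DMSO and at 99.99, 219.6 and 144 CPM in Molidustat, with a log2 fold change of 0.49 ± 0.36, or 0.48 ± 0.35 without that library. RPS19, the small subunit protein most often mutated in Diamond-Blackfan anaemia, had 1.10 ± 0.47 and 0.83 ± 0.44, and RPL31 had 1.03 ± 0.42 and 0.72 ± 0.36. Without Molidustat 48 h replicate 2, RPS27 was at 0.75, RPS27L at 0.14, RPS19 at 0.56 and RPL31 at 0.77.

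Besides RPL39L and RPS27, RPL37 did not overlap between the groups in the higher direction (133, 135 and 144 CPM in DMSO against 291, 205 and 152 CPM in Molidustat), and RPSA and 1 other member did not in the lower direction. Over all genes 9.96% and 8.02% did not overlap at 48 h, so 3 and 2 of 81 members lay below the background. Without DMSO 48 h replicate 2 4 members were separate in each direction, where 13.3% and 15% of all genes were, and 1 member in each direction, RPL39L in the higher, had an unadjusted p under 0.05, where 3.68% of all genes passed higher and 2.92% lower. By adjusted p none was called then, against 0.315% and 0.0328%.

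None of the other paralogue pairs and fixed members passed the test. Their log2 fold changes are given at 24 h, at 48 h and at 48 h without DMSO 48 h replicate 2, in this order. RPL22, at a mean of 46.4 CPM, had 0.23 ± 0.36, 0.46 ± 0.37 and 0.35, and RPL22L1, at 11.1 CPM, had 0.20 ± 0.55, 0.96 ± 0.56 and 0.79. RPL26 and RPL26L1 lay at similar means of 121 and 128 CPM, with -0.38, 0.00 and -0.08 for the former and -0.17, 0.19 and -0.05 for the latter. RPL7L1, at 95.1 CPM, had -0.30 ± 0.36, -0.18 ± 0.36 and 0.11. RPL3L and RPL10L, paralogues of RPL3 and RPL10 known from muscle and testis, had counts in 2 and 3 of the 12 libraries. The remaining stalk protein RPLP2 had 0.21 ± 0.45, -0.09 ± 0.46 and 0.41. RPL5 had 0.02, -0.09 and -0.20, RPL11 had 0.26, 0.43 and 0.45, and RPS27A had 0.13, 0.12 and 0.31. RPL15 had -0.05, 0.41 and 0.12, and RPSA had -0.27, -0.53 and -0.26.

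Such values often turned with 1 library. Of the 32 tested genes named by the rule, 14 at 24 h and 18 at 48 h kept the sign of their log2 fold change without each of the libraries in turn. At 48 h Molidustat 48 h replicate 2 was another such library: without it RPL26 was at -0.45, RPL26L1 at -0.19, RPS27A at -0.28 and RPL7L1 at 0.04. At 24 h RPSA was at -0.65 without Molidustat 24 h replicate 2.

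Whether the treatment acted differently at the 2 times was tested as an interaction. No member passed by edgeR, where no gene did in either direction (0%), nor by DESeq2, where 0.0142% of all genes did. At an unadjusted p under 0.05, RPL37 was higher and RPS15A lower, against 1.18% and 5.6% of all genes. RPL37 was at 139, 148 and 217 CPM in DMSO and at 101, 114.5 and 147.5 CPM in Molidustat at 24 h, and its treatment effect was -0.47 ± 0.32 on the log2 scale then and 0.65 ± 0.32 at 48 h. The interaction was 1.13 ± 0.45 (adjusted p = 0.728 by edgeR), and 1.09 without DMSO 48 h replicate 2. That of RPS15A was -1.65 with that library and -0.31 without it.

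From 24 h to 48 h in DMSO no member was called by edgeR, against 0% of all genes higher and 0.00701% lower, nor by DESeq2, against 0.31% of all genes in either direction. At an unadjusted p under 0.05, RPS27L was lower and RPS15A higher, against 1.38% and 6.76% of all genes. With DMSO 48 h replicate 2 left out, RPS15A went from 1.43 ± 0.55 to 0.09 ± 0.30 on the log2 scale, no member was higher at that p and 4 were lower (RPS16, RPS25, RPS27L and RPL21), against 2.89% and 1.13% of all genes. The median over the members was -0.31 on the log2 scale, against 0.02 over all genes, with 15 of 81 values above 0, and it was -0.30 without DMSO 48 h replicate 2. Without DMSO 24 h replicate 3 it was -0.12. The groups did not overlap for 8 members, all lower (RPS14, RPL19, RPL35, RPLP1, RPS27L, RPL17, RPS10 and RPS26), or 8 of 81 where 6.19% of all genes did not overlap in that direction and 5.75% in the other. The same count without DMSO 48 h replicate 2 was 14 lower members and 2 higher ones (RPLP0 and RPS28) of 82, where 9.49% and 13.4% of all genes did not overlap.

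In Molidustat no member was called between the times by edgeR, with 0% of all genes in either direction, nor by DESeq2, with 0.0602%, and the median was -0.03. At an unadjusted p under 0.05, RPL37 and RPL39L were higher and no member lower, against 2.39% and 2.19% of all genes. Without DMSO 48 h replicate 2, 3 members were higher and 2 lower at that p, where 668 and 741 of 15253 genes passed. No member was called by edgeR then, where 2 genes were called higher and 2 lower. With all libraries the groups did not overlap for 5 higher members (RPL8, RPL4, RPL37, RPL13A and RPL39L) and 4 lower ones (RPL23, RPS25, RPL12 and RPL9), where 7.15% and 6.79% of all genes did not. RPL13A was at 97.1 to 121 CPM at 24 h and at 128 to 175.5 CPM at 48 h in Molidustat. These comparisons share libraries with those of the treatment.

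The spread between replicates differed from member to member. Within groups the SD of log2(CPM + 1) was 0.56 in the median over the members and 0.63 over all genes, or 0.48 and 0.50 without DMSO 48 h replicate 2. Of the tested members, RPL4 (0.12), RPL8 (0.15) and RPL6 (0.17) varied least without that library. RPL6 was at 223 CPM with all 12 libraries between 192 and 258 CPM, the narrowest of the abundant members. RPL7, RPL36A, RPL35 and RPS14 varied most, at 1.10, 0.91, 0.77 and 0.70.

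Genes that work with the family were counted by fixed lists. For comparison with each list, edgeR called 0.231% of all genes higher and 0% lower at 24 h. At 48 h it called 0.21% higher and 0.021% lower. Of 17 TOP messages outside the rule, none was called at either time, with medians of 0.00 at 24 h and -0.05 at 48 h, or -0.09 at 48 h without DMSO 48 h replicate 2. RACK1, a small subunit scaffold and the most abundant of them at 1343 CPM, had -0.09 ± 0.34 and -0.18 ± 0.35 (-0.26 without that library). FAU, which encodes a small subunit protein, had 0.13 ± 0.48 and 1.12 ± 0.49 (0.81 at 48 h without that library and 0.42 without Molidustat 48 h replicate 2). RPL36AL had -0.59 ± 0.54 and 0.80 ± 0.54, which became -1.17 at 24 h without Molidustat 24 h replicate 3, and at 48 h 0.48 without DMSO 48 h replicate 2 and 0.04 without Molidustat 48 h replicate 2. Of 10 genes that control TOP messages none was called. Their log2 fold changes ran from -0.57 to 0.52 at 24 h (median -0.16) and from -2.35 to 0.52 at 48 h (median -0.38). Without DMSO 48 h replicate 2 the 48 h range was -0.89 to 0.40 (median -0.21). At an unadjusted p under 0.05 by edgeR, 3 were lower at 48 h and 0 without that library, against 8.81% and 2.92% of all genes. The kinase MTOR had -0.23 ± 0.39 and -0.58 ± 0.39. The scaffold EIF4G1, the most abundant, had -0.27 ± 0.34 and -0.19 ± 0.34. Without DMSO 48 h replicate 2, MTOR and EIF4G1 were at -0.66 and -0.43 at 48 h. Both turned with another library: MTOR was at 0.12 at 24 h without DMSO 24 h replicate 1. EIF4G1 was at 0.11 at 48 h without DMSO 48 h replicate 1. Of 4 ribosome dormancy factors none was called, with log2 fold changes from -0.93 to -0.36 at 24 h and from -1.0 to 0.16 at 48 h. SERBP1, the most abundant, had -0.36 ± 0.28 and -0.62 ± 0.29 (-0.44 at 48 h without that library), and HABP4 had the lowest values, -0.93 ± 0.46 and -1.0 ± 0.46 (-0.96 without it).

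Of 8 chaperones of single ribosomal proteins, 1 was called, lower at 48 h, where 0.021% of all genes were. LTV1, which helps RPS3 and RPS20 into the small subunit, was at 72.6, 63.9 and 94.96 CPM in DMSO and at 16.4, 28.7 and 18.8 CPM in Molidustat at 48 h. It fell, with all Molidustat libraries below all DMSO libraries and a log2 fold change of -1.87 ± 0.37 (adjusted p = 0.0499 by edgeR). Without DMSO 48 h replicate 2 the value was -2.01 (adjusted p = 0.0129 by edgeR). The direction was the same under all 24 alternatives fitted (-2.15 to -1.68), but the call held under 7 of them: among the libraries left out singly it held only without DMSO 48 h replicate 1 or 2, with adjusted p-values of 0.0508 to 0.34 by edgeR without each of the others, and it was lost with the replicate block (adjusted p = 0.112 by edgeR). Of the 3 ribosomal stress genes none was called. Among all genes, 0.231% were called higher and 0% lower at 24 h, and 0.21% and 0.021% at 48 h. MDM2 was at 70.2, 446 and 56.7 CPM in DMSO and at 55.7, 59.2 and 33.4 CPM in Molidustat at 48 h, with -1.93 ± 0.61 with replicate 2 and -0.38 without it.

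The 78 mitochondrial ribosomal proteins, all tested, had a median of -0.27 at 24 h and 0.09 at 48 h, or -0.16 without DMSO 48 h replicate 2. None was called, where 0.231% of all genes were called higher and 0% lower at 24 h, and 0.21% and 0.021% at 48 h. At 24 h 15 of 78 values were above 0. The groups did not overlap then for 9 genes, all lower, against 5.02% of all genes. At 48 h 1 higher and 4 lower genes did not overlap, against 9.96% and 8.02% of all genes. These were 1 and 21, against 13.3% and 15%, without DMSO 48 h replicate 2. Their share of counts in that library was 0.374%, against 0.868 to 1.29% in the others.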

How the data were processed

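Total RNA of Huh7 cells was made into libraries of message 3′ ends (QIAseq UPX 3′ Transcriptome Kit). The submitters' processing notes name bcl2fastq 2.17.1.14, cutadapt 1.9.1, STAR 2.7.9a, HTSeq 0.11.2 and DESeq2 1.26.0 on build GRCh38. The deposited files hold whole-number counts per gene, made by the authors, with no normalization; the annotation release, strand setting and use of molecular identifiers are not given in the sources used here. The 5 summary lines that name no gene stayed out of library sizes, and the reads on no feature among them came to 17.1 to 50.4% of a library. The lines for low alignment quality and for reads fitting several places were equal in every library and may hold the same reads, so only the latter entered that total. Libraries held 1499273 to 9179389 counts on genes, which cover counting error only. Gene coordinates are those of GENCODE 44 (GRCh38), start sequences those of RefSeq (GRCh38.p14).

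Counts were filtered with filterByExpr (minimum count 10), scaled by TMM and fitted in 1 model of 12 libraries with edgeR 4.0.16 (quasi-likelihood test, Benjamini-Hochberg over all genes tested). Errors of log2 fold changes are standard errors (n = 3 per group), intervals are 95% intervals, and the spread used a pseudocount of 1. An exact permutation test of 3 against 3 cannot go below p = 0.1 and was not used. DESeq2 1.42.0 and limma 3.58.1 in R 4.3.3 gave alternatives. Replicate numbers did not pair samples. Fits were also run on simulated data. The simulation held no library set apart as DMSO 48 h replicate 2 was, so it cannot show how the fits deal with such a library.

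Members, lists and rules were chosen with earlier results of these data known. Named were members called, the 3 highest and 3 lowest in each treatment comparison, the 5 most and 5 least abundant tested, 12 fixed members and paralogue pairs. Alternatives were another scaling or filter, compared groups alone, the replicate number as a block, thinned counts, copies added to parents, no fold threshold and each library left out; 2 were added after seeing the data (DESeq2, and no fold threshold, each without DMSO 48 h replicate 2). Some genes of the family and of the lists enter the counts and medians but are not reported here by name.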

Additional observations from a re-analysis of the deposited data

How the results depend on the processing

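The count of 0 called members at 24 h, of the interaction and of both comparisons over time was 0 under every alternative run for it, DESeq2, the replicate block and each library left out included. At 48 h, 4 members were called lower without the filter on low counts (RPL23, RPS25, RPL9 and RPS15A; 4 of 84, against 2.15% of all genes lower), and leaving out 1 library gave 0 to 2 called members, the 2 being RPL23 (-2.21) and RPL9 (-1.86) without DMSO 48 h replicate 1 (2 of 81, against 1.82% of all genes lower). Without DMSO 48 h replicate 2 the values of RPL23, RPS25, RPL9 and RPS15A were -0.30, -0.25, -0.40 and -0.03. The cause was not tested. With the processed copies added, the share of counts was 2.97% in DMSO 24 h, 2.76% in Molidustat 24 h, 2.30% in DMSO 48 h (2.63% without replicate 2) and 2.71% in Molidustat 48 h, by construction higher than the genes alone.

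The family's median log2 fold change ran from -0.26 to 0.17 at 24 h, from -0.03 to 0.40 at 48 h, from -0.52 to -0.12 over time in DMSO and from -0.31 to 0.09 over time in Molidustat. Scaling by total counts moved the median of all genes at 48 h to 0.13 and that of the members to 0.34. The replicate block, over numbers that share only a label (same-numbered libraries correlated at -0.054 to 0.118), called 0 members and gave medians of -0.09 and 0.25. Of 1520 alternatives for single genes, 1476 moved by less than the standard error without a new call, 39 moved by more, 5 passed the threshold, all lower at 48 h, and 0 turned a called value.

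With all libraries the 95% interval lay within a 2-fold change for 24 of 81 members at 24 h, against 16.7% of all genes. At 48 h this held for 17 members, against 14.0%. Without DMSO 48 h replicate 2 it held for 55 and 32 of 82 members, against 28.1% and 22.3% of all genes. Members with few counts (RPL36A, RPL7, RPL21 and RPS26) had the widest intervals at 24 h.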
